A study of Mus musculus with 12 samples.

Results

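The genes of the mitochondrial protein import translocases were taken from the deposited expression table by symbol, as those beginning with Tomm or Timm followed by a digit, leaving out symbols that hold -ps. The rule found 25 of the 33641 genes in the table, and their 88 transcripts were summed to genes. Of these genes, 23 passed the filter on low values (at least 1 TPM in at least 3 of 12 libraries), and Timm8a2 and Tomm20l did not. TPM (the deposited unit) is the share of a library assigned to a transcript after division by its length, so that levels of different genes can be set side by side.

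Nearly all mitochondrial proteins are encoded in the nucleus, made in the cytosol and imported. The translocase of the outer membrane (TOM) binds precursors through receptors and passes them through the Tomm40 channel. Precursors with a cleavable presequence then enter the TIM23 translocase of the inner membrane, whereas small TIM chaperones carry hydrophobic carrier proteins across the intermembrane space to the TIM22 translocase. Cardiac muscle is packed with mitochondria and depends on this route for its respiratory and carrier proteins.

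RNA came from myocardial tissue of 12 male wild-type C57BL/6 mice, 3 in each of 4 groups, about 16 weeks old when tissue was taken. Surgery was either a sham operation or one that caused a myocardial infarction (MI). Treatment was vehicle, or prednisone, a glucocorticoid drug. Prednisone was injected intraperitoneally at 1 mg/kg once a week for 6 weeks, at lights-on, in mice about 10 weeks old at the start, beginning 2 weeks after surgery. Tissue of all groups was collected 24 hours after the final injection. The groups are called sham vehicle, sham prednisone, MI vehicle and MI prednisone. How the infarct was made and which region of the infarcted heart was sampled are not given in the sources used here. Each library is 1 mouse, so p-values rest on the spread between mice. Limma pooled that spread over the 3 mice in each of the 4 groups and moderated it across genes. Fits on 2 groups used those groups alone.

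The 12 libraries each summed to 1000000 TPM, and the number of reads behind them is unknown, so no counting error can be given. Mitochondrially encoded RNA took 21.6% to 42.0% of the TPM. MI vehicle mouse 3 stood apart, with 14307 genes at 1 TPM or more against 11690 to 12772 in the other libraries, and with a median gene 0.74 above the sham vehicle mean on the log2(TPM + 1) scale. The median of all 13158 genes tested moved between groups, by 0.39 in MI vehicle against sham vehicle and by -0.41 in MI prednisone against MI vehicle. Changes are therefore given on the TPM as deposited and again after median-ratio rescaling, which divides each library by its median ratio to the gene means. All log2 changes are on log2(TPM + 1), which understates the change of low genes. In bulk tissue, fewer cells of a type and less RNA per cell cannot be told apart.

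Promoters are printed for 3 genes called in MI prednisone hearts against MI vehicle hearts, 1 that was lower and 2 that were higher, to show that they differ in sequence. They are the 250 bases before the RefSeq start site in GRCm38.p6, read 5′ to 3′ on the gene's strand. Tomm70a is from chr16:57121464-57121713 on the plus strand, Timm9 from chr12:71136676-71136925 on the minus strand and Tomm5 from chr4:45108114-45108363 on the minus strand. Capitals mark an ETS core (CCGGAAG or its complement) or an E-box (CACGTG).
Tomm70a: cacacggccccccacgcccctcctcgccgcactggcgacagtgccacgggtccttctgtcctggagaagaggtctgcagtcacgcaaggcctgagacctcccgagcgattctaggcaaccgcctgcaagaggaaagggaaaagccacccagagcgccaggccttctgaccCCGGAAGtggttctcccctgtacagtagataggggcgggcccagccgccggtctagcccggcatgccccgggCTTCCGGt
Timm9: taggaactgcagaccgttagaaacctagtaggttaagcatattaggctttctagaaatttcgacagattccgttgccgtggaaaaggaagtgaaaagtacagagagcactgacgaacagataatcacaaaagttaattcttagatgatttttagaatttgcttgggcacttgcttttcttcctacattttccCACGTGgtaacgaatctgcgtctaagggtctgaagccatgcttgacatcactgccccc
Tomm5: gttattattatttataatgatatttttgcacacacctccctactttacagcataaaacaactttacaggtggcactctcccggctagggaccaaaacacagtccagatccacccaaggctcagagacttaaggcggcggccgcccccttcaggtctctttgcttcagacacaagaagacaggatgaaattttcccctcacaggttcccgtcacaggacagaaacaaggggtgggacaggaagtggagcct
Tomm70a carried 2 ETS cores, Timm9 an E-box, and Tomm5 neither.

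In sham vehicle hearts the 23 genes covered a wide range of levels, from 7.997 ± 0.858 TPM for Tomm34 to 165.3 ± 13.3 TPM for Timm8b (SD, n = 3). Timm8b, a small TIM, and Timm23, the channel subunit of the presequence translocase, led the order with overlapping libraries. Tomm5 (137.98 TPM), Timm17a (107.81 TPM) and Tomm20 (83.3 TPM) followed, each with libraries clear of the next gene. Between 45.0 and 59.0 TPM lay Tomm6, Tomm22, Timm10, Timm13, Timm10b, Timm44 and Tomm7, and each overlapped its neighbour. Tomm40l (41.4 TPM) and Tomm40 (36.2 TPM) came next and overlapped each other. Timm50, Timm21, Timm17b, Timm22, Tomm70a and Timm29 lay between 24.2 and 19.4 TPM, again with overlapping neighbours. Timm9 (13.6 TPM), Timm8a1 (9.31 TPM) and Tomm34 formed the lowest 3 detected genes, and their libraries did not overlap. Over all 25 genes, including the 2 that did not pass the filter, 15 of the 24 neighbouring pairs overlapped. Timm8a2, a near copy of Timm8a1, peaked at 0.067 TPM, and Tomm20l, a relative of Tomm20, at 0.12 TPM, so neither could be compared between groups.

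**Figure D1:**
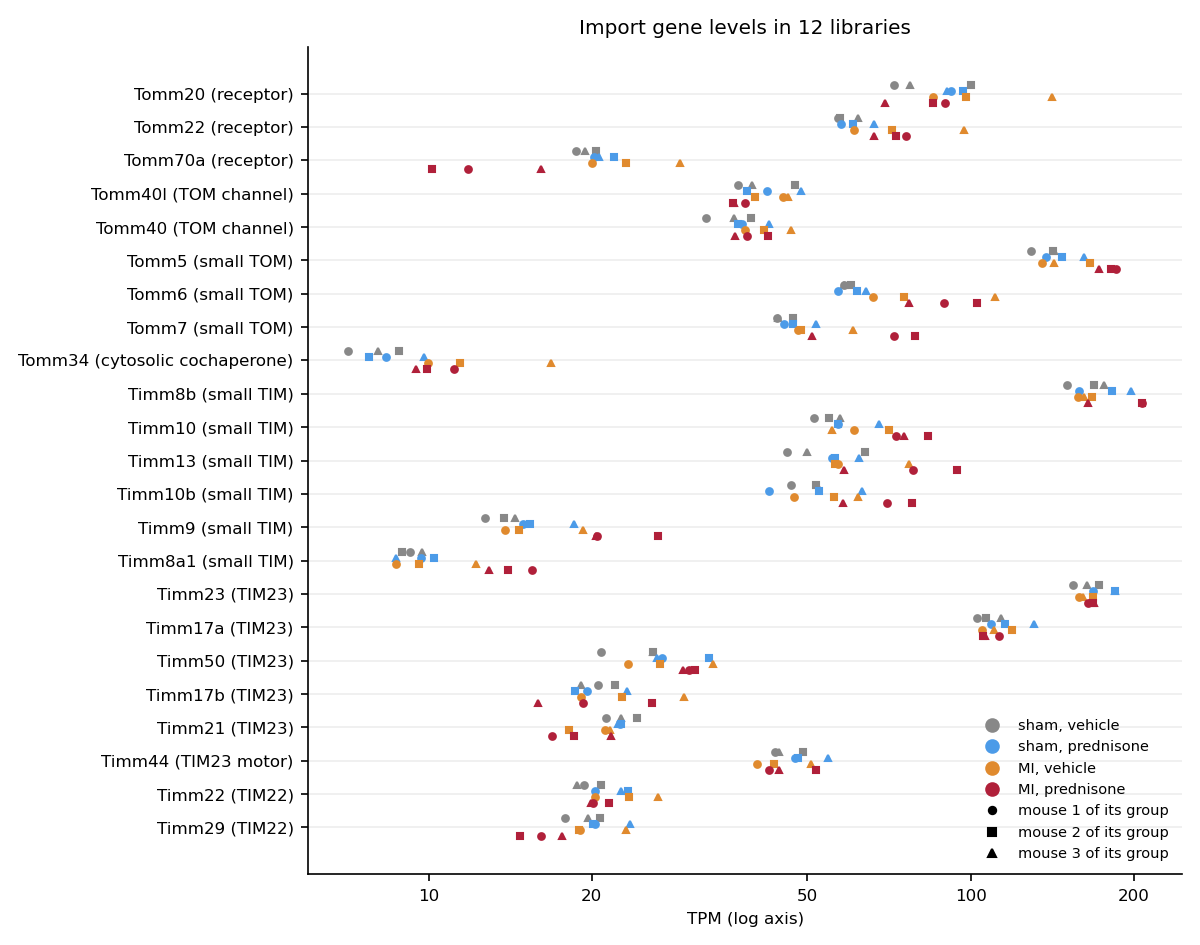
Each point is 1 library's TPM (log axis) for the 23 genes that passed the filter, coloured by group and shaped by mouse number. Tomm70a in MI prednisone hearts lies to the left of every other library, whereas Timm8a1 and Timm9 in MI prednisone hearts lie to the right.

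The comparison of MI prednisone with MI vehicle hearts asks how weekly prednisone altered import gene RNA after infarction. Tomm70a, the receptor that docks carrier precursors and their chaperones, fell by 0.88 on the log2 scale (SE 0.166). Timm9 rose by 0.48 (SE 0.153), Timm8a1 by 0.45 (SE 0.134) and Tomm5 by 0.29 (SE 0.102). These 4 of 23 genes passed limma at a Benjamini-Hochberg adjusted p under 0.05, with adjusted p of 0.00322, 0.0313, 0.024 and 0.0461. Of all genes tested 37.4% were called in this comparison, 2.50% higher and 34.9% lower. The median change of the 23 genes was 0.04, against -0.41 for all genes tested, and 22 of the 23 lay above the median of all genes. After median-ratio rescaling, 14 of the 23 genes were called, all of them higher, against 28.8% of all genes (14.6% higher and 14.2% lower). In the fit on only these 2 groups, limma called 0 of 23, with 3 at an unadjusted p under 0.05, against 6.14% and 33.9% of all genes. Leaving out MI prednisone mouse 1 or 2 left 1 call, Tomm70a, beside 24.7% and 26.8% of all genes. Without MI vehicle mouse 1 the calls were 3, all lower (Tomm70a, Tomm20 and Timm29), beside 47.7% of all genes. Without MI vehicle mouse 3, the median of all genes was -0.22 and that of the import genes 0.11.

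**Figure D2:**
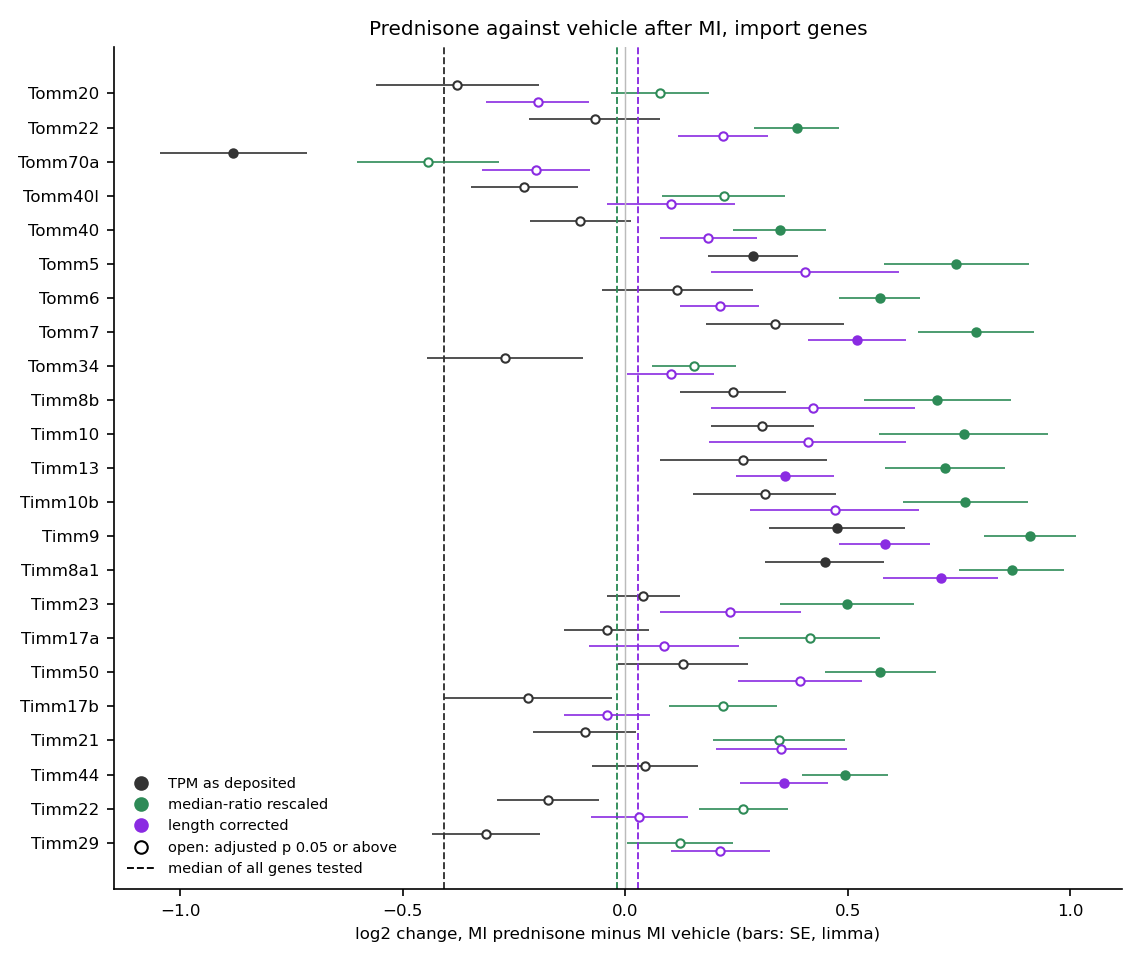
The log2 change of MI prednisone against MI vehicle is plotted with its SE for each gene on TPM as deposited, after median-ratio rescaling and after a length correction, with filled points for adjusted p under 0.05. On TPM as deposited the genes centre on 0.04 and the dashed median of all genes lies at -0.41, and Tomm70a at -0.88 is the only gene below that line.

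Among the receptors, Tomm70a stood at 18.7, 20.3 and 19.4 TPM in sham vehicle hearts and at 20.2, 22.0 and 20.6 TPM in sham prednisone hearts. It reached 20.1, 23.1 and 29.1 TPM in MI vehicle hearts and 11.8, 10.2 and 16.1 TPM in MI prednisone hearts. All 3 MI prednisone hearts were below every other heart. The gene lies at chr16:57121703-57156705 (GRCm38, plus strand), and its only transcript in the table, a coding one of 5964 bases, is the longest of the set by TPM-weighted length. The call held in each of the 12 fits that left out 1 mouse, where the change ranged from -1.05 to -0.74. It was lost after median-ratio rescaling (-0.44, limma adjusted p = 0.0588), in the fit on these 2 groups alone (adjusted p = 0.0587) and after the length correction described below (-0.20, adjusted p = 0.271).

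Tomm20, the general presequence receptor, stood at 72.2, 100.1 and 77.4 TPM in sham vehicle hearts and at 92.0, 96.9 and 90.5 TPM in sham prednisone hearts. It measured 85.1, 97.8 and 141.0 TPM in MI vehicle hearts and 89.7, 85.0 and 69.6 TPM in MI prednisone hearts. The 2 MI groups overlapped, and MI prednisone hearts lay below sham prednisone hearts. Its change with prednisone after MI was -0.38 as deposited and 0.08 after rescaling, neither called, but as deposited it was called lower without MI vehicle mouse 1 (limma adjusted p = 0.0365). Tomm22, the central receptor that also holds the complex together, stood at 56.98, 57.5 and 62.0 TPM in sham vehicle hearts and at 57.7, 60.6 and 66.3 TPM in sham prednisone hearts. Its MI vehicle hearts gave 61.0, 71.7 and 97.3 TPM, and its MI prednisone hearts 76.0, 72.8 and 66.4 TPM. Tomm22 changed by -0.07 with prednisone after MI as deposited, which was not called, and by 0.39 after rescaling, which was (limma adjusted p = 0.0141). The highest library of both receptors was MI vehicle mouse 3, the library that stood apart.

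Tomm40, the channel through which nearly all precursors pass, was measured at 32.5, 39.4 and 36.6 TPM in sham vehicle hearts and 37.8, 37.2 and 42.4 TPM in sham prednisone hearts. It was 38.4, 41.5 and 46.7 TPM in MI vehicle hearts and 38.7, 42.2 and 36.8 TPM in MI prednisone hearts. All groups overlapped, and the change with prednisone after MI (-0.10) was not called as deposited and was 0.35 (limma adjusted p = 0.0305) after rescaling. Its paralog Tomm40l ranged from 36.5 to 48.7 TPM over the 12 hearts and changed by -0.23, not called, although the 3 MI prednisone hearts (36.5 to 38.3 TPM) lay just below the 3 MI vehicle hearts (39.9 to 46.1 TPM).

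The small TOM subunits support assembly of the channel. Tomm5, at chr4:45105208-45108114, stood at 129.3, 142.1 and 142.5 TPM in sham vehicle hearts and at 137.7, 147.4 and 161.9 TPM in sham prednisone hearts. It measured 135.1, 165.8 and 142.5 TPM in MI vehicle hearts and 185.7, 181.5 and 172.5 TPM in MI prednisone hearts. The 3 MI prednisone hearts were above every other heart. The Tomm5 call was kept in 2 of the 12 fits that left out 1 mouse (without sham prednisone mouse 3 or MI vehicle mouse 2), and the limma adjusted p lay between 0.0541 and 0.127 in the others. Tomm6 ranged from 76.9 to 102.7 TPM in MI prednisone hearts and from 65.97 to 110.7 TPM in MI vehicle hearts, against 56.8 to 64.2 TPM in sham hearts of either treatment. Tomm7 ranged from 50.9 to 78.8 TPM in MI prednisone hearts and from 48.1 to 60.7 TPM in MI vehicle hearts. The changes of Tomm6 (0.12) and Tomm7 (0.34) with prednisone after MI were not called as deposited and were 0.57 and 0.79 after rescaling, both called.

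The small TIM chaperones work as paired rings, Timm9 with Timm10 and Timm8 with Timm13. Timm9, at chr12:71123173-71136684, stood at 12.7, 13.8 and 14.4 TPM in sham vehicle hearts and at 14.9, 15.4 and 18.6 TPM in sham prednisone hearts. It measured 13.8, 14.7 and 19.3 TPM in MI vehicle hearts and 20.4, 26.5 and 20.4 TPM in MI prednisone hearts. Every MI prednisone heart was above all 9 others. Timm9 and Tomm20l overlap at their ends on opposite strands, and whether the counting used strand is not given in the sources used here, but Tomm20l was at or near 0. Timm8a1, at chrX:134537256-134541865, stood at 9.24, 8.95 and 9.73 TPM in sham vehicle hearts and at 9.67, 10.2 and 8.71 TPM in sham prednisone hearts. It measured 8.71, 9.59 and 12.2 TPM in MI vehicle hearts and 15.5, 14.0 and 12.9 TPM in MI prednisone hearts. Again the 3 MI prednisone hearts were the highest of the 12.

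The calls of Timm9 and Timm8a1 with prednisone after MI each held in 8 of 12 fits that left out 1 mouse. Both were lost without MI vehicle mouse 1 (limma adjusted p = 0.0729 and 0.0542), MI vehicle mouse 2 (0.0784 and 0.0612), MI prednisone mouse 1 (0.0501 and 0.0918) or MI prednisone mouse 2 (0.109 and 0.0568), with Timm9 given first. Their changes stayed between 0.35 and 0.61 for Timm9 and between 0.35 and 0.58 for Timm8a1. After rescaling they were 0.91 (limma adjusted p = 0.000773) and 0.87 (adjusted p = 0.00143).

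Timm10, the partner of Timm9, stood at 51.5, 54.9 and 57.4 TPM in sham vehicle hearts and at 56.9, 56.9 and 67.7 TPM in sham prednisone hearts. It measured 60.8, 70.8 and 55.5 TPM in MI vehicle hearts and 72.8, 83.3 and 75.4 TPM in MI prednisone hearts. The MI prednisone hearts did not overlap any other group, and the change of 0.31 had a limma adjusted p of 0.0559. Timm13, Timm8b and Timm10b had changes of 0.27, 0.24 and 0.31, not called, with MI prednisone ranges of 58.5 to 94.3 TPM, 164.8 to 207.3 TPM and 58.3 to 77.9 TPM. In all 3 genes, the lowest of the MI prednisone hearts was mouse 3. In that mouse mitochondrially encoded RNA took 35.9% of the TPM, against 24.6% and 21.6% in mice 1 and 2; its part in the result was not tested.

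Set together after their values were seen, the 9 detected small TIM and small TOM genes had a median change of 0.31 with prednisone after MI, with a range from 0.12 to 0.48. The other 14 genes had a median of -0.14 and a range from -0.88 to 0.13. After rescaling the medians were 0.76 and 0.31, and all 9 small subunits were called higher, against 5 of the other 14 and 14.6% of all genes. All of the 9 but Timm8a1 and Tomm7 were shorter than 1000 bases, and of the other 14 only Timm17a was. After the length correction described below the medians were 0.42 and 0.15. Then 4 of the 9 and 1 of the 14 were called higher, against 8.72% of all genes. Role and length were not separated. This grouping is a description and has no test.

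No subunit of the presequence translocase was called with prednisone after MI on TPM as deposited. Timm23, its channel, stood at 154.6, 172.4 and 163.6 TPM in sham vehicle hearts and at 168.3, 184.9 and 184.6 TPM in sham prednisone hearts. MI vehicle hearts gave 158.1, 168.4 and 161.0 TPM and MI prednisone hearts 164.9, 168.1 and 168.7 TPM, so that the MI groups overlapped, with a change of 0.04. Timm17a, an essential partner of the channel, was at 102.9, 106.8 and 113.7 TPM in sham vehicle hearts and 108.9, 115.6 and 131.1 TPM in sham prednisone hearts. It was at 104.9, 119.0 and 110.4 TPM in MI vehicle hearts and 112.7, 105.3 and 106.3 TPM in MI prednisone hearts. Its change of -0.04 was not called, and 63.1% of the Timm17a signal was assigned to a 565-base transcript annotated as a retained intron. Timm17b, the alternative form of that partner, stood at 20.6, 22.1 and 19.1 TPM in sham vehicle hearts and at 19.6, 18.6 and 23.2 TPM in sham prednisone hearts. It measured 19.1, 22.7 and 29.6 TPM in MI vehicle hearts and 19.3, 25.9 and 15.9 TPM in MI prednisone hearts, overlapping throughout, with a change of -0.22.

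Timm50, the receptor that hands precursors from TOM to the channel, stood at 20.8, 25.9 and 26.0 TPM in sham vehicle hearts and at 27.0, 32.9 and 26.4 TPM in sham prednisone hearts. It measured 23.3, 26.8 and 33.4 TPM in MI vehicle hearts and 30.2, 31.0 and 29.4 TPM in MI prednisone hearts, a change of 0.13. Timm44, which tethers the import motor to the channel, was at 43.5, 49.1 and 44.3 TPM in sham vehicle hearts and 47.3, 48.0 and 54.5 TPM in sham prednisone hearts. Its MI vehicle hearts gave 40.3, 43.4 and 50.8 TPM and its MI prednisone hearts 42.5, 51.9 and 44.3 TPM, a change of 0.05. Neither gene separated the 2 MI groups as deposited. After rescaling Timm23 (0.50), Timm50 (0.57) and Timm44 (0.49) were called higher, with limma adjusted p of 0.0306, 0.00791 and 0.00525, and Timm17a (0.41), Timm17b (0.22) and Timm21 (0.35) were not. Timm21, a subunit that links the translocase to the respiratory chain, ranged from 16.9 to 24.3 TPM over the 12 hearts.

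In the carrier translocase, Timm22, its channel, stood at 19.3, 20.8 and 18.8 TPM in sham vehicle hearts and at 20.3, 23.4 and 22.6 TPM in sham prednisone hearts. It measured 20.3, 23.4 and 26.5 TPM in MI vehicle hearts and 20.1, 21.6 and 19.9 TPM in MI prednisone hearts, a change of -0.17 that was not called. Timm29, which links the carrier translocase to TOM, ranged from 14.8 to 17.6 TPM in MI prednisone hearts and from 18.9 to 23.1 TPM in MI vehicle hearts. Those groups did not overlap, and the change of -0.31 had a limma adjusted p of 0.0616, or of 0.0495 with the mouse number as a block and 0.0481 without MI vehicle mouse 1. After rescaling the change was 0.12.

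As deposited, 7 of the 23 genes had MI prednisone and MI vehicle hearts that did not overlap. They were Timm10, Timm8a1, Timm9 and Tomm5 on the higher side, where 3.59% of all genes lay, and Timm29, Tomm40l and Tomm70a on the lower side, where 42.6% lay. After rescaling 17 were clear on the higher side, against 19.0% of all genes, and 0 on the lower side, against 19.1%.

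**Figure D3:**
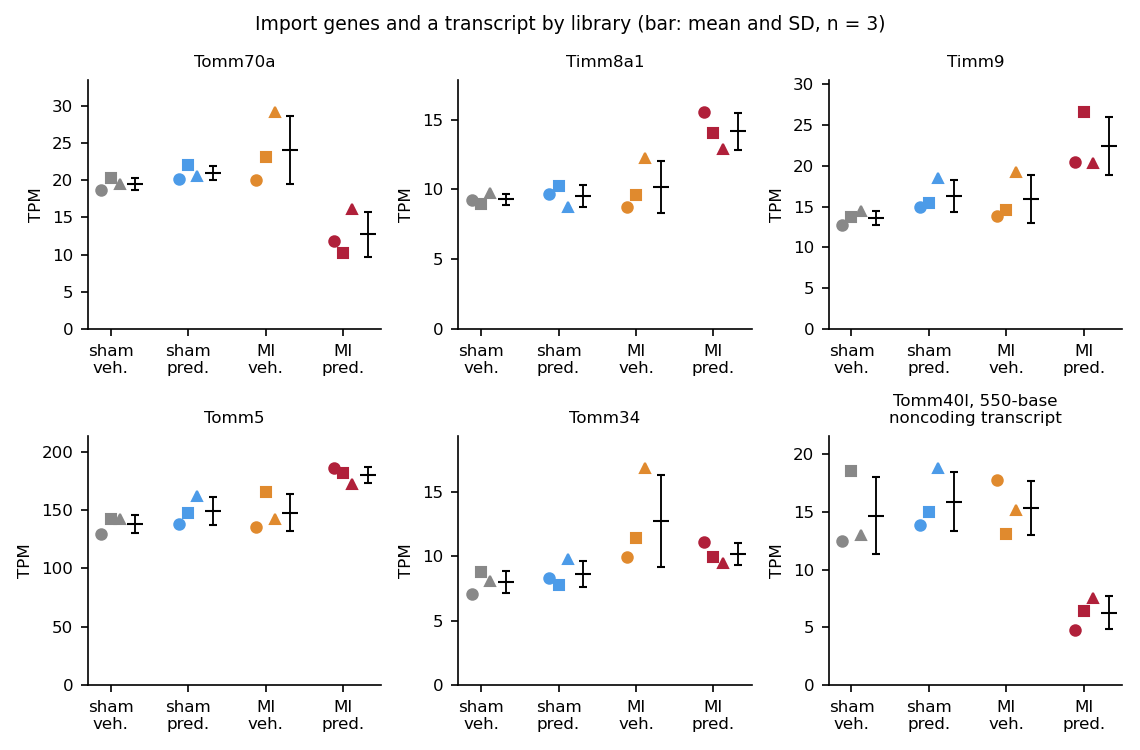
TPM of each library for 5 genes and 1 transcript, with the group mean and SD (n = 3) beside the points (circle, square and triangle for mice 1, 2 and 3). Tomm70a and the Tomm40l noncoding transcript are lowest in MI prednisone hearts, and Timm8a1, Timm9 and Tomm5 are highest there.

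Transcript length moved with these changes. Across all 13103 genes with a length, the change with prednisone after MI and TPM-weighted transcript length had a Spearman correlation of -0.40, and across the 23 import genes one of -0.64; genes of 1 set of libraries are not independent replicates. The 8 import genes shorter than 1000 bases had a median change of 0.28, against -0.03 for all genes of that length. For the 12 genes of 1000 to 2000 bases the medians were -0.09 and -0.25. Tomm70a, the 1 gene of 4000 bases or more, changed by -0.88 against a median of -0.67 for all such genes. After a loess correction of each library for transcript length, 5 import genes were called higher with prednisone after MI and 0 lower, against 8.72% and 7.65% of all genes, or 16.4% in all. The 5 were Timm9 (0.58), Timm8a1 (0.71), Tomm7 (0.52), Timm13 (0.36) and Timm44 (0.36). RNA integrity is not given in the sources used here, and the part of transcript length in the result was not tested beyond this correction.

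**Figure D4:**
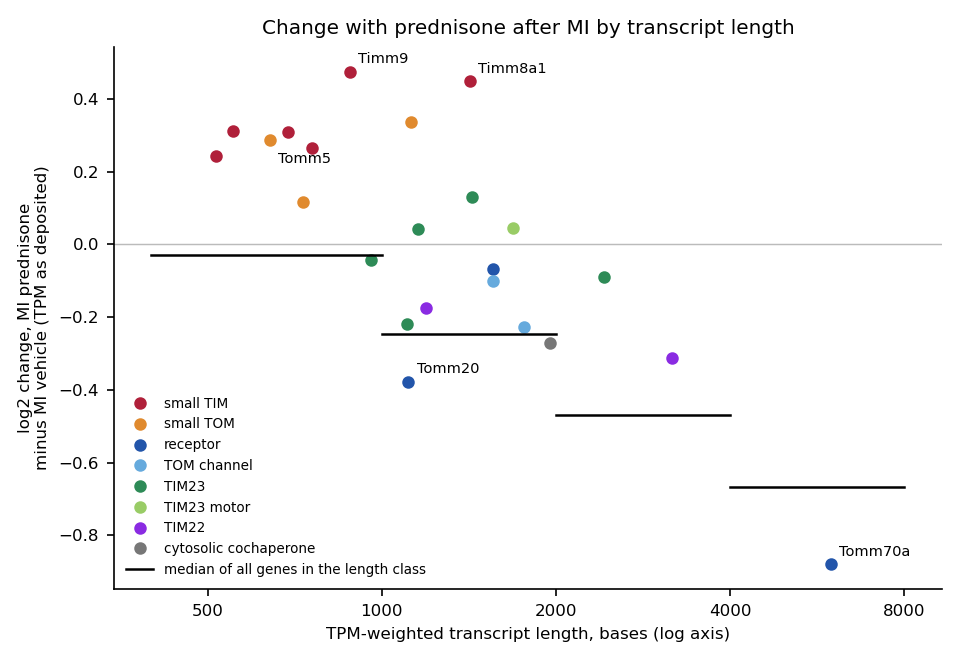
The log2 change of MI prednisone against MI vehicle (TPM as deposited) is plotted against TPM-weighted transcript length (log axis), coloured by role, with black lines for the median of all genes in each length class. The small TIM and small TOM genes lie below 2000 bases and above their lines, and Tomm70a lies at the long end below its line.

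Single transcripts were also tested, and 1 transcript of Tomm40l was called where the gene sum was not. Tomm40l has a coding transcript of 2812 bases and a noncoding processed transcript of 550 bases, ENSMUST00000154106.7, which was singled out after its values were seen. The noncoding transcript stood at 12.5, 18.5 and 13.0 TPM in sham vehicle hearts and at 13.9, 15.0 and 18.8 TPM in sham prednisone hearts. It measured 17.8, 13.1 and 15.2 TPM in MI vehicle hearts and 4.75, 6.44 and 7.58 TPM in MI prednisone hearts. The 3 MI prednisone hearts lay far below all 9 others. It fell by 1.18 with prednisone after MI (SE 0.202, limma adjusted p = 0.00186 over 27769 transcripts) and by 1.23 in MI prednisone against sham prednisone hearts (adjusted p = 0.0019). Both calls held in all 12 fits that left out 1 mouse and after rescaling. The coding transcript measured 11.5, 15.6 and 14.1 TPM in MI vehicle hearts and 16.6, 17.0 and 18.7 TPM in MI prednisone hearts. Its MI groups did not overlap either, in the opposite direction, but limma did not call it (0.33, adjusted p = 0.071). Transcripts of 1 gene share sequence, so the split between them depends on the authors' quantification. With prednisone after MI, 5 of 59 import transcripts were called, 3 higher and 2 lower. Of all transcripts 33.0% were called (5.92% higher and 27.1% lower). In MI prednisone against sham prednisone hearts 5 of the 59 were called, 2 higher and 3 lower, where the gene sums gave 2 calls. Of all transcripts 22.3% were called there (6.75% higher and 15.6% lower).

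MI vehicle against sham vehicle hearts asks what infarction alone did to these genes. Tomm34, a cytosolic cochaperone that binds precursors and heat shock proteins, was the only one of the 23 called. It rose by 0.59 (SE 0.175, limma adjusted p = 0.0457), and 16.0% of all genes were called (15.1% higher and 0.904% lower). The median change of the 23 genes was 0.18, below the median of 0.39 for all genes, and 2 of the 23 lay above that median. Without MI vehicle mouse 3 these medians were 0.06 and 0.19. After rescaling the median was -0.25 with 0 genes called higher and 2 lower, Timm21 and Timm44, against 7.44% of all genes (3.72% in each direction). The length correction gave the same count of 2 lower, against 6.20% of all genes (3.04% higher and 3.17% lower).

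Tomm34, at chr2:164053540-164071169, stood at 7.10, 8.81 and 8.08 TPM in sham vehicle hearts and at 8.35, 7.78 and 9.80 TPM in sham prednisone hearts. It measured 9.99, 11.4 and 16.8 TPM in MI vehicle hearts and 11.1, 9.93 and 9.50 TPM in MI prednisone hearts. All MI vehicle hearts were above all sham hearts, and mouse 3, the library that stood apart, was the highest. Without that mouse the change was 0.38 (limma adjusted p = 0.0915), and the call was kept in 1 of the 12 fits that left out 1 mouse, that without MI vehicle mouse 1. In the other fits the adjusted p lay between 0.0534 and 0.147. Rescaling brought the change to 0.18 (limma adjusted p = 0.244). Tomm6, Tomm7 and Tomm34 had MI vehicle hearts above all sham vehicle hearts, as did 40.8% of all genes, and 0 genes of the set lay below, against 4.17%. After rescaling 12 lay below, against 18.3% of all genes, and Tomm34 alone above, against 15.7%. Without MI vehicle mouse 1, 5 import genes were called, beside 42.8% of all genes. Without any other 1 mouse 0 were called, beside 0.912% to 14.7% of all genes. Tomm70a changed by 0.28 in this comparison, not called, and by -0.15 after rescaling.

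MI prednisone against sham prednisone hearts asks what infarction did under prednisone. Timm8a1 rose by 0.52 (SE 0.134, limma adjusted p = 0.0229) and Tomm70a fell by 0.70 (SE 0.166, adjusted p = 0.0158). They were the 2 of 23 genes called, beside 16.8% of all genes (2.73% higher and 14.1% lower). The median change was 0.08 for the import genes and -0.06 for all genes. After rescaling 9 were called, against 26.0% of all genes, 8 higher and 1 lower, against 11.7% and 14.3%. The 8 were Timm8a1, Timm9, Timm10b, Timm13, Tomm6, Tomm7, Tomm22 and Tomm34, and Tomm70a (-0.60, limma adjusted p = 0.02) was the 1 that was lower. After the length correction 0 were called, against 12.9% of all genes, with limma adjusted p of 0.0641 for Timm8a1 and 0.132 for Tomm70a.

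Both calls depended on single mice. The call of Tomm70a in MI prednisone against sham prednisone hearts was lost without sham prednisone mouse 2 or 3 or MI prednisone mouse 1 or 2, with limma adjusted p between 0.0512 and 0.0721. That of Timm8a1 was lost without any 1 of the sham prednisone mice or without MI prednisone mouse 1 or 2, with adjusted p between 0.0517 and 0.101. Neither reversed. Without sham prednisone mouse 2 or 3, 0 import genes were called, beside 8.71% and 8.87% of all genes. Leaving out MI prednisone mouse 1 or 2 also gave 0, beside 7.81% and 7.91%. Without sham prednisone mouse 1, 1 was called, beside 9.26%. The share of all genes called thus fell in the same fits. Without MI vehicle mouse 3, which enters this comparison only through the shared estimate of the spread, 7 import genes were called, beside 30.2% of all genes. Without MI prednisone mouse 3, 6 were, beside 2630 of all 13158 genes. As deposited, 6 import genes were clear of overlap on the higher side (Timm10, Timm8a1, Timm9, Tomm22, Tomm5 and Tomm6), against 12.9% of all genes. On the lower side were 5 (Timm29, Tomm70a, Timm21, Tomm20 and Tomm40l), against 32.2%. After rescaling the 6 stayed clear, joined by Timm10b, Timm13, Tomm34, Tomm40 and Tomm7, against 24.4% of all genes. Only Timm29 and Tomm70a then stayed clear on the lower side, against 24.4%.

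In sham hearts, prednisone against vehicle gave no call among the import genes. Limma called 0 of 23 and had 0 at an unadjusted p under 0.05, beside 0.114% of all genes called (0.0532% higher and 0.0608% lower). After rescaling it also called 0, beside 0.122% of all genes (0.0532% higher and 0.0684% lower). The changes lay between -0.01 and 0.24 with a median of 0.11, against 0.07 for all genes. Sham prednisone hearts lay above sham vehicle hearts without overlap for Timm50 and Timm9 alone, against 15.6% of all genes, and for 0 genes after rescaling, against 8.44%. On the lower side were 0 of the set, against 2.58% of all genes. Tomm70a changed by 0.10.

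The difference between the prednisone effects after MI and after sham surgery was tested as an interaction. Tomm70a was the 1 import gene called, with a difference of -0.98 (SE 0.235, limma adjusted p = 0.0178), beside 21.3% of all genes (0.540% higher and 20.7% lower). The 9 small TIM and small TOM genes had a median difference of 0.18 and the other 14 one of -0.21, against -0.48 for all genes. The Tomm70a call was lost after rescaling (-0.45, limma adjusted p = 0.209), after the length correction (-0.18, adjusted p = 0.601) and without sham vehicle mouse 1 (-0.95, adjusted p = 0.0519). After rescaling 6 small subunits were called with a positive difference (Timm10b, Timm13, Timm8a1, Timm9, Tomm6 and Tomm7), against 10.1% of all genes (5.12% higher and 4.93% lower). Without MI vehicle mouse 1, 3 import genes were called as deposited, beside 34.4% of all genes, and without MI vehicle mouse 3, 2 were, beside 23.5%. The median of all genes was -0.29 without MI vehicle mouse 3. The Tomm40l noncoding transcript had a difference of -1.30 (limma adjusted p = 0.0128), or of -0.80 (adjusted p = 0.115) after rescaling. The 5 comparisons share groups of mice and are not independent of each other.

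**Figure D5:**
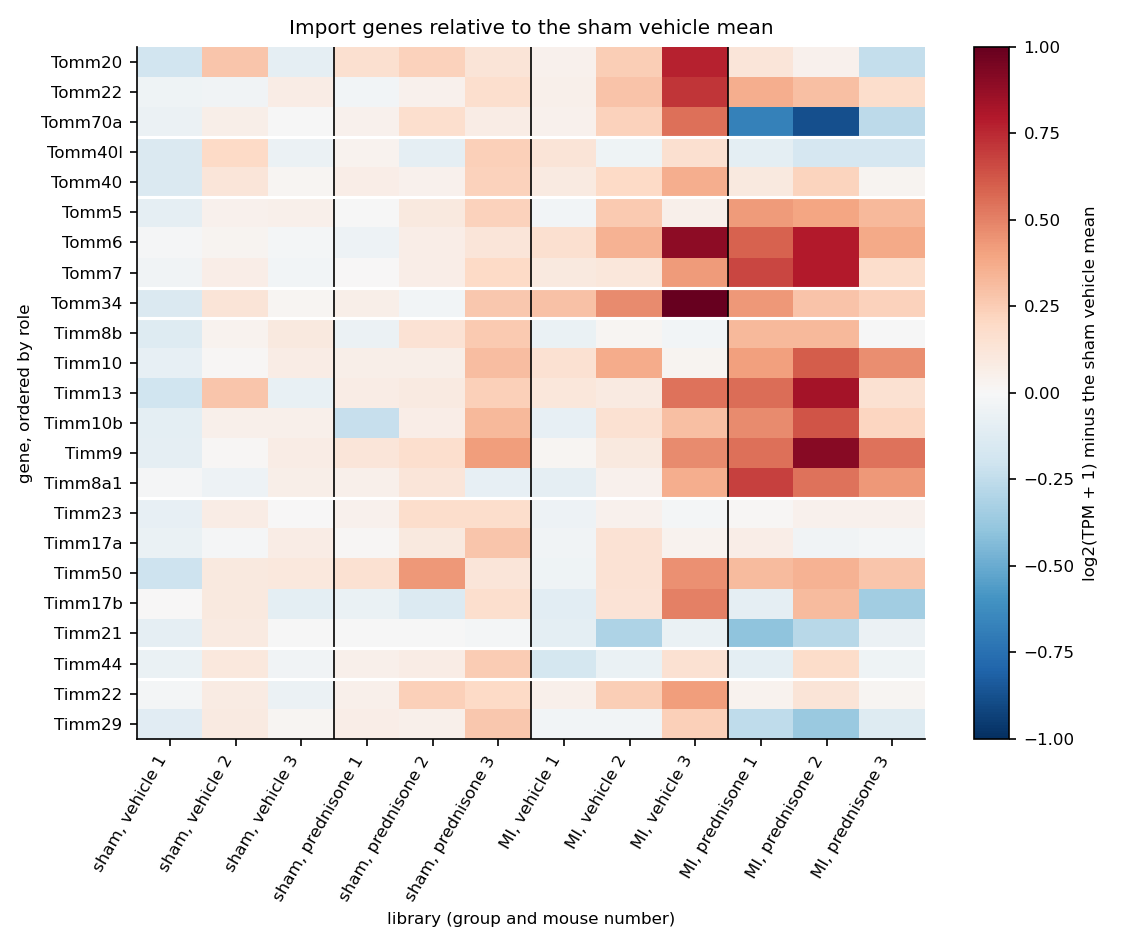
Each cell is the log2(TPM + 1) of a gene in 1 library minus its sham vehicle mean, with genes ordered by role and libraries by group. Timm8a1, Timm9, Timm10 and Tomm5 are highest in the MI prednisone libraries, Tomm70a is lowest there, and the receptors are high in MI vehicle mouse 3.

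In a ratio of paralogs within a library the scaling of that library cancels, apart from a pseudocount of 0.1 TPM. Tomm40 over Tomm40l gave log2 ratios of -0.19 ± 0.081 in sham vehicle, -0.14 ± 0.074 in sham prednisone, -0.05 ± 0.157 in MI vehicle and 0.08 ± 0.116 in MI prednisone hearts (SD, n = 3). The MI effect over both treatments was 0.18 by an exact two-sided stratified permutation test (p = 0.025, adjusted 0.12). Timm8a1 over Timm8b differed by 0.30 between MI and sham hearts (exact permutation p = 0.03, adjusted 0.12). Timm8a1 made up 5.03% to 5.78% of the pair in sham vehicle hearts, 4.22% to 5.75% in sham prednisone hearts and 6.33% to 7.27% in MI prednisone hearts. In MI vehicle hearts it made up 5.24%, 5.43% and 7.03%, so that 2 of those 3 hearts lay within the sham range. For Timm17a over Timm17b and Timm10 over Timm10b, the adjusted p was 0.55 or more. Over 4 pairs and both factors, 8 tests in all with 400 permutations each, 0 passed after Benjamini-Hochberg adjustment and 2 had an unadjusted p under 0.05.

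Partners of the translocases outside the symbol rule were followed as a list of 26 genes, covering the import motor, the outer membrane insertion machinery, the intermembrane space oxidation pathway, the processing peptidases and the matrix folding chaperones. With prednisone after MI, limma called 6 of 26, 1 higher and 5 lower, with a median change of -0.08 against -0.41 for all genes, of which 37.4% were called (2.50% higher and 34.9% lower). Dnajc19, a cofactor of the import motor, rose by 0.40 (limma adjusted p = 0.0255), from 56.99 ± 5.33 to 75.7 ± 10.6 TPM (SD, n = 3). Agk, a lipid kinase that is also a subunit of the carrier translocase, fell by 0.63 (limma adjusted p = 0.0103), from 7.68 ± 1.81 to 4.54 ± 0.58 TPM. Pmpca, a subunit of the presequence peptidase, fell by 0.41 (limma adjusted p = 0.0111) and Grpel1, the nucleotide exchange factor of the motor, by 0.34 (adjusted p = 0.0376). Without MI prednisone mouse 1 the Pmpca call was lost (limma adjusted p = 0.0509), and the Dnajc19 call was lost without MI vehicle mouse 1 (0.0594) or MI prednisone mouse 2 (0.0877). The Grpel1 call was kept in 3 of 12 fits that left out 1 mouse (without MI prednisone mouse 3, MI vehicle mouse 1 or sham prednisone mouse 1), with limma adjusted p of 0.0506 to 0.126 in the others. After rescaling 11 were called, all higher, against 14.6% of all genes higher and 14.2% lower, and Pmpca (0.03), Grpel1 (0.10) and Agk (-0.24) were not called.

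Infarction under vehicle gave 1 partner call, beside 16.0% of all genes. It was Mtch1, an outer membrane insertase, which rose by 0.42 (limma adjusted p = 0.0419) and changed by -0.02 after rescaling. Its call was kept in 3 of 12 fits that left out 1 mouse (without MI vehicle mouse 1 or MI prednisone mouse 2 or 3), with limma adjusted p of 0.0572 to 0.148 in the others, and was lost with the mouse number as a block (0.0583). Infarction under prednisone gave 4, all lower, beside 16.8% of all genes called and 14.1% lower. The largest were Hspd1, the matrix chaperonin (-0.56, limma adjusted p = 0.00372), Pmpca (-0.49, adjusted p = 0.00967) and Mipep, a processing peptidase (-0.48, adjusted p = 0.00845). The Pmpca call was lost without MI prednisone mouse 1 (limma adjusted p = 0.0522). Those of Pmpca and Mipep were lost after rescaling and after the length correction. Hspd1 stood at 177.3 ± 6.5 TPM in sham prednisone hearts and at 119.8 ± 11.1 TPM in MI prednisone hearts, and its call held after rescaling (-0.46, limma adjusted p = 0.0336). Prednisone in sham hearts gave 0 partner calls, beside 0.114% of all genes.

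Promoter windows of 300 bases, 250 before to 50 after the RefSeq start, were matched by symbol for 22 of the 25 genes, and Timm21, Tomm40l and Tomm7 had no entry. Each motif was searched on both strands. An import gene was counted if any of its windows held the motif, whereas the other shares are over single windows. The 22 include Timm8a2 and Tomm20l, which did not pass the filter. The ETS core CCGGAAG, bound by factors such as GABPA, was found for 9 of 22 genes (40.9%), against 16.77% of windows of genes tested and 8.86% of all windows. These 9 were Timm10, Timm10b, Timm23, Timm29, Timm8a2, Timm8b, Tomm22, Tomm34 and Tomm70a, which changed in different directions or were not called. The E-box CACGTG was found for 5 genes (22.7%, against 9.76% and 7.15%), Timm10, Timm8a1, Timm9, Tomm20 and Tomm20l. The palindromic NRF1 motif was found for 0 genes, against 1.93% and 0.97%, and the form with its middle base free, which includes it, for 2 (9.1%, against 9.56% and 4.60%). The YY1 motif AAGATGGC was found for 1 gene, Timm50 (4.5%, against 4.25% and 2.75%). The ERR motif TCAAGGTCA was found for 1 gene, Timm8b (4.5%, against 0.28% and 0.42%). A match is a description of letters and shows no binding.

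Cell type markers moved with the MI groups. Fell and rose here mean called lower and higher by limma with prednisone after MI, on TPM as deposited. Of all genes 34.9% were called lower and 2.50% higher in that comparison. The summed level of 8 fibroblast markers was 933.8 to 1269.2 TPM in MI vehicle hearts and 342.6 to 595.3 TPM in MI prednisone hearts, against 392.3 to 531.0 TPM in sham hearts, and 7 of the 8 fell with prednisone after MI. Of 8 macrophage markers 6 fell, with sums of 614.1 to 1341.3 TPM in MI vehicle hearts, 306.6 to 558.2 TPM in MI prednisone hearts and 276.5 to 421.4 TPM in sham hearts. Of 10 cardiomyocyte markers 4 rose, with sums of 34303.8 to 43849.4 TPM in MI vehicle hearts, 49180.1 to 52918.7 TPM in MI prednisone hearts and 46879.7 to 55737.4 TPM in sham hearts. Of 4 atrial myocyte markers 3 rose, with sums of 2801.7 to 4105.5 TPM in MI vehicle hearts, 4335.0 to 6173.4 TPM in MI prednisone hearts and 845.2 to 2686.2 TPM in sham hearts. The 7 lymphocyte markers summed to 10.7 to 254.5 TPM in MI vehicle hearts and 8.1 to 17.8 TPM in MI prednisone hearts, with 0 called. The 5 erythroid markers summed to 26711.8 to 98114.1 TPM over all hearts, with 0 called. The 5 adipocyte markers were uneven between hearts, with sums of 16.4 to 1501.4 TPM in MI vehicle, 249.7 to 826.3 TPM in MI prednisone and 17.9 to 345.0 TPM in sham hearts. In the same order the 7 endothelial markers summed to 305.9 to 397.4, 289.2 to 394.9 and 239.8 to 319.2 TPM. The 6 smooth muscle and pericyte markers summed to 199.2 to 282.6, 169.8 to 201.2 and 165.0 to 184.6 TPM. All markers of these lists were detected, and those of cardiomyocytes were abundant in all hearts. Marker RNA of several cell types thus moved in the same comparison as the import genes, and its part in their changes was not tested.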

How the data were processed

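RNA from 12 mouse hearts was measured by sequencing of stranded mRNA libraries. The authors deposited TPM per transcript; Trimmomatic, HISAT2, kallisto and the mm10 build are named per the submitters' processing notes, and the annotation release is not given in the sources used here. TPM carries no read depth, so no counting error was computed. Transcripts were summed by gene symbol. Genes reaching 1 TPM in 3 or more libraries were tested on log2(TPM + 1) with limma 3.58.1 in R 4.3.3, with an intensity trend, 4 group means and Benjamini-Hochberg adjustment over all 13158 genes (threshold 0.05). An exact permutation test of 3 against 3 cannot give a two-sided p under 0.1, so single genes have none. Paralog ratios were computed in Python 3.11.15.

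Alternatives were median-ratio rescaling, removal of mitochondrially encoded genes and their nuclear copies, other filters (5 TPM or none) and pseudocount (0.1), no intensity trend, a replicate block, fits on the groups compared, 1 mouse left out, the most abundant transcript, and a loess correction for length (span 0.5; GENCODE M21 lengths for 99.6% of tested genes). The limma fits were also run on simulated data. Those data had no shift of the median gene and no outlying library, so they do not cover these features. Mice carry numbers 1 to 3 in each group, but these are different mice, and same-numbered deviations correlated at -0.58 to 0.136, so the numbers do not pair them.

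Members and lists were chosen with earlier results of these data known. Values in every library are given for 12 leading genes by role and for genes called in any comparison with a mean of at least 5 TPM; partners named are the 3 called with the largest change in each direction. The Tomm40l transcript, Timm8b, Timm29, Tomm6 and Tomm7 details and the joint group of small subunits were added after values were seen.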

Additional observations from a re-analysis of the deposited data

Results flagged for a closer look

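The prednisone effect after MI differed from that after sham surgery, by the interaction term in limma with Benjamini-Hochberg adjustment, for 1 import gene, 3 partners and 1 import transcript. Of all genes 21.3% were called in this contrast, and of all transcripts 18.7%. The difference, on log2(TPM + 1), was -0.977 for Tomm70a (adjusted p = 0.0178), and the 3 MI prednisone hearts were the lowest of the 12. It was -0.724 for Agk (limma adjusted p = 0.0407), -0.434 for Mipep (limma adjusted p = 0.0484) and -0.561 for Hspd1 (limma adjusted p = 0.0184). It was -1.3 for the Tomm40l transcript ENSMUST00000154106.7 (limma adjusted p = 0.0128 over all transcripts). The median of all genes was -0.48 in the same contrast, and 0 of these 5 differences were called after median-ratio rescaling. On leaving out 1 mouse the Agk call was kept in 4 of 12 fits (all 3 of the MI vehicle mice and MI prednisone mouse 3) and that of Mipep in 2 of 12 (MI vehicle mouse 3 and MI prednisone mouse 3), with limma adjusted p up to 0.103 and 0.117 in the others. That of Hspd1 was lost without sham vehicle mouse 1 (limma adjusted p = 0.0541) or MI prednisone mouse 1 (0.0503), and that of Tomm70a without sham vehicle mouse 1 (0.0519). Groups of 3 were not tested for single outlying libraries.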

How the results depend on the processing

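Prednisone against vehicle in sham hearts gave 0 import genes under all alternatives run, beside 0.0304% to 0.182% of all genes. For MI against sham under vehicle 1 was called, beside 16.0% of all genes. Median-ratio rescaling and the length correction each gave 2 (beside 7.44% and 6.20%). Removal of mitochondrial genes (8.18%), no filter (4.52%), the block (8.03%) and the block with the length correction (0.633%) each gave 0. So did the fit on these groups (0.0152%) and the most abundant transcript (2.84% of all transcripts). For MI against sham under prednisone 2 were called, beside 16.8% of all genes. Rescaling gave 9 (beside 26%), mitochondrial removal 5 (21.2%), the 5 TPM filter 4 (24%) and the fit on these groups 4 (24.8%). With the block (7.71%) or without it (12.9%), the length correction gave 0. Rescaling without MI vehicle mouse 3 (added after seeing the data) gave 11 (35.3%). For prednisone after MI 4 were called, beside 37.4% of all genes. Rescaling gave 14 (beside 28.8%), the fit on these groups 0 (6.14%) and the added combination 13 (27.1%). For the interaction 1 was called, beside 21.3% of all genes. Rescaling gave 6 (beside 10.1%) and the added combination 7 (12.1%). The length correction gave 0 with the block (0.786%) or without it (1.99%). Leaving out 1 mouse gave 0 to 5, 0 to 7, 1 to 5 and 0 to 3 calls in these 4 comparisons. The shares of all genes called in those fits were 0.912% to 42.8%, 7.81% to 30.2%, 24.7% to 47.7% and 8.44% to 34.4%. The number of import genes called and the share of all genes called both varied between fits, and not always in the same direction. For prednisone after MI, rescaling raised the number from 4 to 14 while the share fell from 37.4% to 28.8%. For the interaction the number rose from 1 to 6 while the share fell from 21.3% to 10.1%. Among partners, MI under vehicle had 1 of 26 called, and rescaling gave 5 (beside 7.44% of all genes) and the block 0 (8.03%). Prednisone after MI had 6 called, and rescaling gave 11 (28.8%). The interaction had 3 called, and rescaling gave 5 (10.1%) and removal of mitochondrial genes 0 (15.3%).

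Several changes with prednisone after MI turned sign, and the cause was not tested. Rescaling gave 0.414 for Timm17a, 0.22 for Timm17b, 0.345 for Timm21, 0.265 for Timm22, 0.124 for Timm29, 0.078 for Tomm20, 0.385 for Tomm22, 0.155 for Tomm34, 0.347 for Tomm40, 0.221 for Tomm40l, 0.033 for Pmpca and 0.105 for Grpel1. Rescaling without MI vehicle mouse 3 gave, for the first 10 in that order, 0.207, 0.188, 0.197, 0.161, 0.022, 0.085, 0.368, 0.168, 0.223 and 0.062. The length correction, with the replicate block or without it, gave 0.087 for Timm17a, 0.351 for Timm21, 0.032 for Timm22, 0.214 for Timm29, 0.219 for Tomm22, 0.102 for Tomm34, 0.187 for Tomm40, 0.103 for Tomm40l, 0.093 for Pmpca and 0.228 for Grpel1. Mitochondrial removal gave 0.036 for Timm17a and 0.008 for Tomm22. The most abundant transcript gave 0.069 for Timm17a, 0.115 for Timm17b, 0.11 for Timm22, -0.045 for Timm44 and 0.331 for Tomm40l. Leaving out 1 mouse gave -0.084 to 0.006 for Timm17a, -0.04 to 0.137 for Timm44, -0.219 to 0.114 for Tomm22 and -0.037 to 0.332 for Tomm6.

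In MI against sham under vehicle, Tomm70a was -0.148 after rescaling, -0.107 after the length correction with or without the block and -0.095 in the added combination, and Mtch1 was -0.019 and -0.007 after rescaling and length correction, also with the block. Tomm70a in sham hearts was -0.017 after the length correction, also with the block. The Mipep interaction was 0.094 after rescaling and 0.155 after the length correction, also with the block. The Timm10 to Timm10b ratio ran from -0.038 to 0.097 (MI) and -0.043 to 0.088 (prednisone) on leaving out 1 mouse, and was -0.035 (prednisone) with the most abundant transcript. Tomm40 to Tomm40l ran from 0.143 to 0.222 (MI), passing the threshold at 0.222 without MI vehicle mouse 1, and was -0.243 (prednisone) with the most abundant transcript.

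Mouse numbers do not pair these mice. For the import gene changes given in the text, the replicate block alone ended 2 calls, those of Tomm5 after MI (limma adjusted p = 0.0539) and Tomm34 (0.0635), and brought Timm29 after MI (0.0495) under the threshold. In MI against sham under prednisone it called 3 import genes in place of 2, 1 higher and 2 lower, and 6 partners in place of 4, all lower. Of all genes it called 14.4% there, in place of 16.8%. Among partners it ended the calls of Mtch1 after MI (0.0583) and of the Mipep interaction (0.0677). With 3 mice per group, unknown depth and a median of all genes that moves between groups, changes near that median depend on the scaling chosen.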
